A study of Caenorhabditis elegans with 2 samples.

Results

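Histones are the proteins around which nuclear DNA is wound. The core histones H2A, H2B, H3 and H4 form the octamer of the nucleosome, and the linker histone H1 binds where DNA enters and leaves it. Most core histone genes of Caenorhabditis elegans sit in clusters of near-identical copies that are transcribed during DNA replication; their mRNAs end in a stem-loop in place of a poly(A) tail. Variant and linker histones come mostly from genes that stand alone and are used outside replication as well. Embryos divide fast and depend on a large supply of histones.

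The histone genes were taken from the Ensembl annotation of WBcel235 (the same assembly as ce11) by name, as nuclear protein-coding genes called his or hil followed by a number. There were 80 of them among 19973 nuclear protein-coding genes. Each was asked whether its promoter window, from 1000 bp before to 200 bp after any annotated 5′ end, held the summit of a peak. The data were chromatin immunoprecipitation sequencing (ChIP-seq) peak lists from 1 group of 2 biological replicates: whole mid-embryos, 3.5 hours old after egg bleaching, of strain OP787, precipitated with an antibody against green fluorescent protein (GFP). The embryos carried the transgene wgIs787, an integrated copy of T27A8.2 fused to TY1, EGFP and 3xFLAG together with unc-119(+), in the unc-119(tm4063) mutant. The labels name tab-1 as the target although the genotype puts the tag on T27A8.2, a different gene, and the samples are therefore referred to as labelled tab-1. A control experiment named in the labels was not used here, and with 1 group there is no contrast between conditions and no test.

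The family of each gene followed its annotated product. The exceptions were his-24, taken as H1, and the short models his-39 and his-73, whose product names H2A, H2B and H3 together and which were counted with H2A. The product of hil-8 names only an H15 domain, and it was counted with H1. Compared with his-24, hil-7 (66 residues in the model used) and hil-8 were 19.7% identical and hil-1 28.4%, and the other H1 genes 51% to 64.4%. H1 had 9 genes, H2A 19, H2B 16, H3 20 and H4 16. All 16 H4 genes encode the same protein, as do 16 of the 19 H2A genes and 15 of the 20 H3 genes. The H2A genes that differ were his-35, 99.2% identical to the common protein, and his-39 (67 residues) and his-73 (46 residues). The H3 genes that differ were the replacement variants his-71 (94.1% identical) and his-72 (93.4%), his-74 (88.2%), and his-69 and his-70 (76.5% each). A gap of at most 5 kb between neighbours placed 67 genes in 14 clusters of 2 to 13 genes, and left 13 genes single: all 9 H1 genes, his-71, his-72, his-73 and his-74. The 3′ stem-loop was found in 56 of the 71 core histone genes, all in clusters, and in no H1 gene. For 68 of the 80 genes the annotated 5′ end is the start of the coding sequence, so distances from it are not distances from a mapped transcription start. In the clusters 31 pairs of neighbours, 62 genes in all, point away from each other with 227 to 368 bp between their 5′ ends (median 258 bp).

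The sequences that carry the results are the promoters with a summit and the copied promoters without one. All are from the RefSeq genome of WBcel235, printed 5′ to 3′ on the strand of the gene named last. Capitals mark matches, on either strand, to 6 words: TATAAA, the TATA box word; CCAAT, of the CAAT box; the repeats GAGAGA and also GCGCGC; the core of many homeodomain sites, TAATTA; and lastly GTGTCCC. The last was added after these promoters had been read and seen to share it. The words do not overlap each other in the printed stretches. The first 4 lines reach at most 100 bp to either side of a summit and leave out annotated untranslated sequence. They are chrV:8535075-8535275 (plus strand, running into the coding sequence of his-5), chrV:9546953-9547104 (plus strand), chrX:8159082-8159168 (plus strand, ending 14 bp before the summit) and chrIII:12369009-12369209 (minus strand, its last 42 bp inside the longer his-72 transcript, in 7 coding bases and an intron, where its GCGCGC lies). The fifth is the coding stretch under the his-24 summit, chrX:14490139-14490313 (plus strand). The last 2 are whole stretches between divergent cluster genes, chrII:13819938-13820209 and chrV:8847705-8847942 (plus strand).
his-6 and his-5: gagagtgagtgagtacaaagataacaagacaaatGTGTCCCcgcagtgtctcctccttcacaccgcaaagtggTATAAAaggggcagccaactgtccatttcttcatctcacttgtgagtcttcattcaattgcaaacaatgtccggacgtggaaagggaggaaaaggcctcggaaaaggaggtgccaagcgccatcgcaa
his-37: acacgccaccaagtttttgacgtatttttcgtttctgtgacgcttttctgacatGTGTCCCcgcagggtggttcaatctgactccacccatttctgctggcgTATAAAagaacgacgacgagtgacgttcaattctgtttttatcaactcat
hil-3: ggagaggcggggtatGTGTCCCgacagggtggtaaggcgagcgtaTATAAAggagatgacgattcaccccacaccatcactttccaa
his-72: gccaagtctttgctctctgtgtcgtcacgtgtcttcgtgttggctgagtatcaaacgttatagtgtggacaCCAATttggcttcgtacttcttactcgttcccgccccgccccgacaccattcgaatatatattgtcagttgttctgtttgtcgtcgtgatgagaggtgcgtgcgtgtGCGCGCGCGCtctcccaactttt
his-24: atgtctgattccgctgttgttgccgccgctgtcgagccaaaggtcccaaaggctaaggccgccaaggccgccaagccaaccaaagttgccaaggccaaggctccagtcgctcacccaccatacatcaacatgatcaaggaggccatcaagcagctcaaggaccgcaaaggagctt
his-14 and his-13: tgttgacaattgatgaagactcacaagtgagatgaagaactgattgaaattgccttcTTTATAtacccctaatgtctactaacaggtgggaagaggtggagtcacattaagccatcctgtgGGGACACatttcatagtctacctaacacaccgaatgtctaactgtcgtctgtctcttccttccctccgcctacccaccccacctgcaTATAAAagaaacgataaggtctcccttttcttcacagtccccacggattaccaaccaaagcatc
his-50 and his-49: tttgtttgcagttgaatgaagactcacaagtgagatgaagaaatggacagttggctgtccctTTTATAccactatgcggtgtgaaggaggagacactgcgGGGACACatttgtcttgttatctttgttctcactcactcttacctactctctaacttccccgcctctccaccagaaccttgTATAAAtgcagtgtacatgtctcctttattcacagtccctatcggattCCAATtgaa

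The first 5 stretches lie at or next to a summit and the last 2 do not. The his-14 and his-13 stretch, between an H4 and an H3 gene, recurs letter for letter between 2 further pairs, and the his-50 and his-49 stretch recurs between his-28 and his-27. Among the 31 divergent pairs, 16 have a stretch identical to that of another pair, leaving 21 distinct stretches.

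In the list of both replicates that the authors call conservative, 6 of the 80 histone genes (7.5%) had a summit in the promoter window, against 594 of all protein-coding genes (2.97%). The 6 genes were his-67 and his-68 (H4 and H2A, sharing 1 site), his-32 (H3), his-37 (H4), hil-3 and his-24 (both H1). They rest on 5 sites among the 1266 of the list. The second list of both replicates held 9 histone genes (11.2%) on 8 of its 1490 sites, against 3.47% of all genes. Replicate 1's own list held 4 (5%) on 2 of 453 sites, against 1.08%, and replicate 2's own list 7 (8.75%) on 5 of 726 sites, against 2.08%. All these shares rest on few sites, and genes of a divergent pair are counted from the same summit.

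Counted by locus, 3 of the 14 clusters (21.4%) and 2 of the 13 single genes (15.4%) had a conservative site. A cluster pools the windows of 2 to 13 genes, so these 2 shares are not of like units. By gene, 4 of 67 cluster genes (5.97%) and 2 of 13 single genes (15.4%) had a conservative site, against 2.97% of all genes. Not every cluster is of the replication type: his-35 to his-37, which is among the 3, and his-69 and his-70 hold no gene with a stem-loop. The second list gave 3 clusters and 4 single genes, and replicate 2's own list 3 clusters and 2 single genes. By gene, the second list held 7.46% of cluster genes and 30.8% of single genes, against 3.47% of all genes. Replicate 2's own list held 7.46% and 15.4%, against 2.08%. Replicate 1's own list gave 2 clusters and none of the single genes, so that the single genes with a site rest on replicate 2 or on both replicates together. By gene, replicate 1's own list held 5.97% of cluster genes, against 1.08% of all genes. Over the 4 lists there were 12 sites at 15 genes (18.8%, against 4.09% of all genes) in 10 loci, 5 clusters and 5 single genes; 65 genes in 17 loci had none. Only the his-67 and his-68 site stood in all 4 lists, 8 of the 12 stood in 1 list, and 6 were in neither replicate's own list. None of the 12 summits lay within 200 bp of a tRNA, snoRNA, snRNA or miRNA gene.

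By family, the conservative list, with 2.97% of all genes, held 2 of 9 H1 genes, 1 of 19 H2A genes, 0 of 16 H2B genes, 1 of 20 H3 genes and 2 of 16 H4 genes. The only H2B gene in any list was his-62, through the site it shares with his-61. Among core histone genes, 2 of 56 with a stem-loop (3.57%) and 2 of 15 without (13.3%) had a conservative site, the first share being near the 2.97% of all genes. The second list gave 3 of 56 (5.36%) and 3 of 15 (20%), against 3.47% of all genes. In both lists the site shared by his-67, with a stem-loop, and his-68, without, is counted in each group. The group without a stem-loop is not a set of variants. Its genes with a conservative site, his-68 and his-37, encode the common H2A and H4 proteins. In the same group, his-19, his-47, his-53 and his-57 also encode the common H2A. The stem-loop was scored only by an exact pattern.

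**Figure D1:**
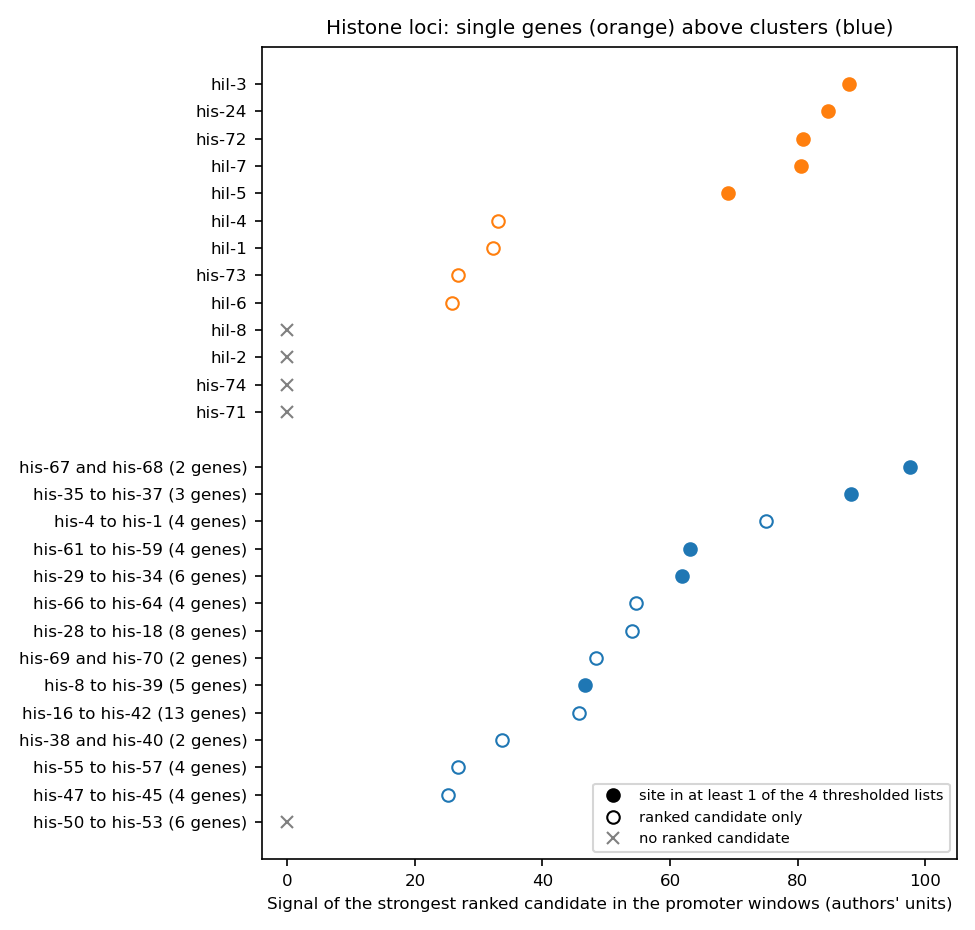
Signal of the strongest ranked candidate (authors' units, horizontal axis) in the promoter windows of each of the 27 histone loci, single genes in orange and clusters in blue. Filled points are loci with a site in at least 1 thresholded list, and crosses at 0 have no candidate. A filled point need not be the listed site. For his-29 to his-34 it is a candidate of 61.9 with an IDR of 0.734, while the listed site has 53.6. The 5 single genes with a site lie between 69.1 and 88, above the 4 with a candidate only (25.8 to 33.1), while the his-4 to his-1 cluster reached 75 without a site.

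The strongest histone site lay between his-67 (H4) and his-68 (H2A). Its peak spans 9988886 to 9989189 on chromosome I, with the summit 94 bp before the his-68 5′ end and also inside the window of alg-5, an Argonaute gene. It had a signal of 97.7 over both replicates, rank 592 of 1266 in the conservative list. In the replicates' own ranked lists it had 48.7 in replicate 1 and 45.7 in replicate 2. Its irreproducible discovery rate (IDR), which estimates how many peaks of this rank fail to repeat between replicates, was 0.00178. No other histone site stood in both replicates' own thresholded lists.

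The his-37 site (9546901 to 9547204 on V) lay 52 bp before the 5′ end of an H4 gene whose 3′ end has no stem-loop. It had a signal of 88.4, rank 751, with 35.2 in replicate 1 and 52.9 in replicate 2 and an IDR of 0.00583. It stood in the conservative list, the second list and replicate 2's own list. The printed stretch has the TATA box word just after the summit, before the gene. The same 3-gene cluster holds his-35 and his-41, and a further conservative site with a signal of 79.3 (9544258 to 9544561 on V) lay 249 bp beyond the 3′ end of his-35, outside every histone promoter window.

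The his-32 site was the weakest of the conservative ones. Its summit lay 529 bp before the 5′ end of the H3 gene his-32, inside the coding exon of its divergent H4 partner his-31 (peak 8333624 to 8333927 on IV). The signal was 53.6, rank 1263 of 1266, with 37.1 in replicate 1 and 35.3 in replicate 2, and the IDR 0.00925. It was in no other list.

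Both remaining conservative sites belonged to linker histones. At hil-3 (8159030 to 8159333 on X) the summit lay 13 bp after the 5′ end, in the 5′ untranslated region. The signal was 88, rank 761, with 50 in replicate 1 and 42.8 in replicate 2, and the IDR 0.00194; no other list held it. At his-24 (14490061 to 14490364 on X) the summit lay 119 bp after the 5′ end, in the first coding stretch printed above. The signal was 84.7, rank 826, with 33.7 in replicate 1 and 52 in replicate 2, and the IDR 0.00785. The second list and replicate 2's own list held it too. The 5 conservative histone sites had a median signal of 88 (53.6 to 97.7), against 99 for the 489 conservative sites in any protein-coding promoter window.

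The second list added 4 sites at 3 single genes that the conservative one lacks. The his-72 site (12368957 to 12369260 on III) had its summit 59 bp before 1 of the 2 annotated 5′ ends of this replacement H3 gene and 945 bp before the other. Its signal was 80.8. It had 29.9 in replicate 1 and 57.2 in replicate 2, where it ranked 652 of 63146, and replicate 2's own list held it. The H1 gene hil-7 has 4 annotated 5′ ends, and a coding summit 135 bp after the first of them and 33 bp after the last (6646295 to 6646598 on IV) had a signal of 80.5, with 31.5 in replicate 1 and 45 in replicate 2. The other hil-7 site, with its summit 360 bp before the first 5′ end (6645800 to 6646103 on IV), was the least even of all, with 15 in replicate 1 and 57.1 in replicate 2 and an IDR of 0.469. The hil-5 site, in the 5′ untranslated region 17 bp after the 5′ end (5774450 to 5774753 on chromosome I), leaned the other way, with 44.5 in replicate 1 and 28 in replicate 2 and a joint signal of 69.1.

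The last 3 sites lay in clusters of replication-type genes, each in 1 list. In the his-61 to his-59 cluster (H2A, H2B, H4 and H3), a summit 173 bp into the coding exon of his-61 was in the second list, with a signal of 63.2, 28.4 in replicate 1 and 40.6 in replicate 2. A summit 95 bp into the H3 gene his-59 was in replicate 1's own list, with 32.1 there. The strongest overlapping peak of replicate 2's ranked list had 32.6, but its summit lay outside the his-59 window. Inside that window replicate 2's strongest was 26.8. In the his-8 to his-39 cluster, a summit 39 bp before the H4 gene his-5 was in replicate 2's own list, with 38.6 there. The strongest overlapping peak of replicate 1's ranked list had 30.4. The joint candidate overlapping this site (46.7) had its summit in the coding exon of his-6. Of the 12 sites, 5 had the summit in a coding exon, and only those of his-5 with his-6 and his-67 with his-68 lay between divergent genes.

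**Figure D2:**
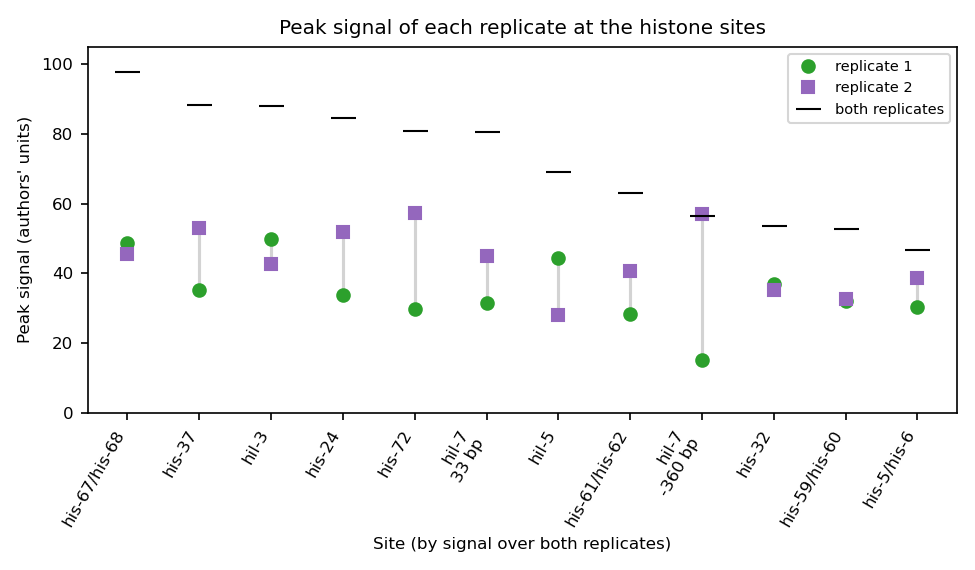
Peak signal (authors' units) at the 12 histone sites in replicate 1 (circles), replicate 2 (squares) and both together (bars), ordered by the joint signal. Values are those of ranked peaks overlapping each site, whose summits can differ, as at his-59 with his-60 and his-5 with his-6. Replicate 1 ran from 15 to 50 and replicate 2 from 28 to 57.2, and the widest gap is at the hil-7 site whose summit lies 360 bp before the nearest 5′ end.

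The replicates did not weigh the histone sites alike. All 12 were overlapped by a ranked candidate in both replicates. At 9 of them the strongest such candidate ranked better in replicate 2 than in replicate 1, and at 3 the reverse held. The same count was not made over all listed sites, so whether this tilt is particular to histone sites was not tested. Thresholding each replicate alone kept 453 sites genome-wide in replicate 1 and 726 in replicate 2. In replicate 1 the ranks ran from 788 to 43742 of 74963 candidates, and in replicate 2 from 652 to 6626 of 63146. Signals of different lists have no stated common scale, so the ranks, which depend on list length, are given as a description.

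Below the thresholds, candidates were spread over most loci. Ranked candidates of both replicates, which include weak peaks, gave 49 of 80 histone genes (61.2%) a summit, against 64.3% of all genes. At an IDR of 0.1 or less there were 23 histone genes (28.8%), against 10.7% of all genes, on 18 of 6753 sites. By locus that looser cut took in 7 of the 14 clusters and 5 of the 13 single genes. By gene it took in 26.9% of cluster genes and 38.5% of single genes. The strongest candidate in the window had a median signal of 46 over the 49 histone genes with one (6.49 to 97.7), against 35.1 over 12840 genes. Single genes with a candidate had a median of 69.1 (n = 9) and cluster genes 45.9 (n = 40).

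Of the 17 loci without a listed site, 12 had a candidate. The strongest was in the his-4 to his-1 cluster, in the coding exon of the H2B gene his-4, with a signal of 75, rank 1549 of 95098 candidates, 42.3 in replicate 1's ranked list and 30.4 in replicate 2's, and an IDR of 0.0111. That IDR is just above 0.01, and the weakest conservative histone IDR, at his-32, was 0.00925. The second list holds histone sites with higher IDRs in this ranked list, such as 0.0284 at his-61 with his-62. Next came the his-66 to his-64 cluster (54.6, in the coding exon of the H3 gene his-63, IDR 0.0413), the his-28 to his-18 cluster (54, IDR 0.126) and the pair his-69 and his-70 (48.4, IDR 0.143). In the largest cluster, the 13 genes from his-16 to his-42, the strongest candidate had 45.8 and an IDR of 0.461.

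The other clusters without a site were weaker still: 33.7 at his-38 and his-40, 26.7 at his-55 to his-57 and 25.2 at his-47 to his-45. Single genes without a site had 33.1 (hil-4), 32.2 (hil-1), 26.8 (his-73) and 25.8 (hil-6). No candidate of both replicates lay in the windows of hil-2, hil-8, his-71 and his-74, or of any of the 6 genes from his-50 to his-53. The pair of replacement H3 genes thus differed, with a site at his-72 and no candidate at his-71; their windows are both 100% unique at 50 bases, a measure explained below.

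**Figure D3:**
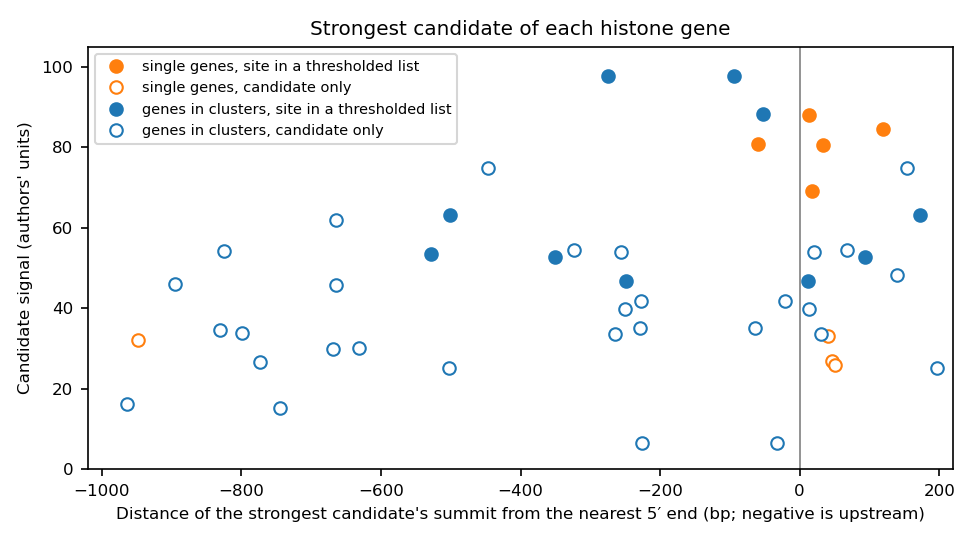
Distance of the strongest candidate's summit from the gene's nearest annotated 5′ end (bp, negative is upstream) against its signal (authors' units) for the 49 histone genes with a candidate; filled points are genes with a site in a thresholded list. Over all genes with a candidate, distances run from -948 to 119 bp in the 9 single genes and from -964 to 197 bp in the 40 cluster genes. In the 5 single genes with a site the strongest candidate lies between 59 bp before and 119 bp after the nearest 5′ end.

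The distances of cluster genes overlap with those of their neighbours, because one summit can lie in several windows. Counted once, 84 candidates lay in the histone windows. Of these, 30 (35.7%) were in coding exons of histone genes, which make up 34.1% of the bases of the windows, and 12 (14.3%) lay between divergent genes, which make up 11.1%. Among the 18 with an IDR of 0.1 or less, 11 were in coding exons and 3 between divergent genes. The median distance of the strongest candidate from the 5′ end was -227 bp over all 49 histone genes, -254 bp in clusters and 33 bp in single genes.

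Copied sequence moved with these counts. A window was scored by the share of its 50-base words that occur once in the genome on either strand; the sources used here give neither the read length nor the treatment of reads that match several places. Histone windows had a median of 46.9% unique words, 21.8% in clusters and 100% in single genes, against 100% for all genes. Of the 40 histone genes under 50% unique, 13 (32.5%) had a candidate and 0 a site in any list. All genes under 50% unique had a candidate in 28.3%, a site in any list in 1.47% and a conservative site in 1.05%. Of the 13 histone genes between 50% and 90%, 13 had a candidate, 2 (15.4%) a site in any list and 0 a conservative site, against 67.5%, 4.29% and 2.76% of all genes. Of the 27 histone genes at 90% or more, 23 (85.2%) had a candidate, 13 (48.1%) a site in any list and 6 (22.2%) a conservative site. All genes at 90% or more had these in 64.9%, 4.14% and 3.05%. The part of copied sequence in the results was not tested. All 6 conservative histone genes lie in windows of 90% or more, and the 6-gene cluster without any candidate is 0% unique.

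**Figure D4:**
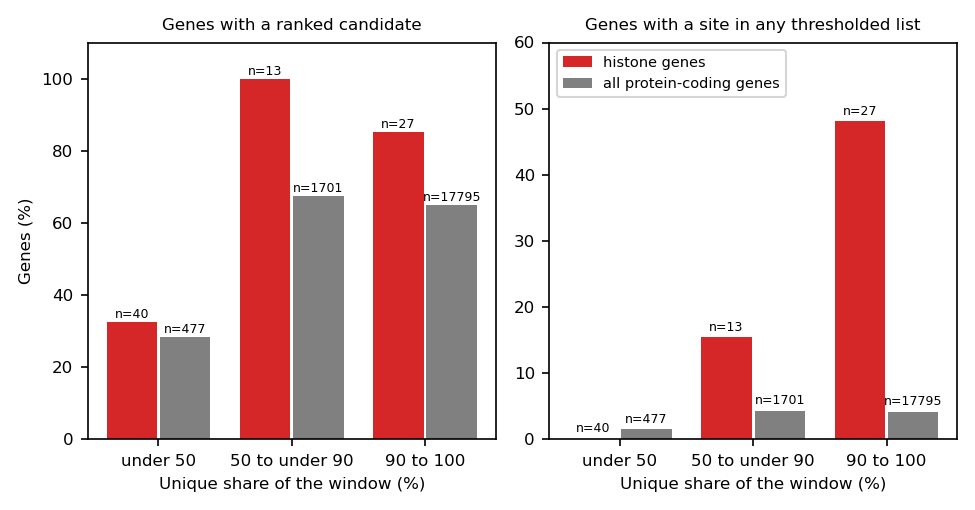
Share of genes (%) with a ranked candidate (left) and with a site in any thresholded list (right), by the unique share of the promoter window, for histone genes (red) and all protein-coding genes (grey), with the number of genes above each bar. Histone genes had no site where less than 50% of the window was unique, and 48.1% had one at 90% or more, against 4.14% of all genes.

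Within clusters the same order held. Of the 67 cluster genes, 40 were under 50% unique with 0 in any list, 12 were between 50% and 90% with 2, and 15 were at 90% or more with 8. Among the 12 single genes at 90% or more 5 had a site. The stretches between divergent genes that are shared by several pairs are 0% unique, so a peak there could not be placed from 50 bases alone; both printed copied promoters are among them.

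Several words were more frequent in histone promoters than in those of all genes. In the 250 bp before the 5′ end of the longest transcript, GTGTCCC stood on either strand in 54 of 80 histone genes (67.5%), against 1.31% of all genes, and in 24 of the 31 divergent stretches. GTGTCCC was chosen because these promoters share it, so its excess is not an independent result. TATAAA stood in 63.8% of histone genes against 35.1% of all genes, GAGAGA in 43.8% against 19.1%, and CCAAT in 51.2% against 38.9%. TAATTA stood in 1.25% of histone genes against 14.5%, and GCGCGC in 1.25% against 3.26%. Copies of 1 stretch enter these shares several times, and divergent genes share their bases.

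GTGTCCC was picked from histone promoters and stands in the 250 bp before 67.5% of all histone genes. An excess at histone summits over sites of all kinds was therefore built in. Of the 12 summits, 5 had GTGTCCC within 100 bp, against 2.61% of the 1266 conservative sites. The same 5 had TATAAA, against 9.08%: hil-3, hil-5, his-37, his-5 with his-6, and his-67 with his-68. These 5 lie between 94 bp before and 17 bp after a 5′ end, as the printed promoters of his-5, his-37 and hil-3 show. CCAAT stood at 4 summits (30.4% of conservative sites), GAGAGA at 1 (25.7%), GCGCGC at 1, that of his-72 (11.7%), and TAATTA at 0 (4.74%). The GC content around the 12 summits had a median of 51% (37.3% to 57.7%), against 48.3% at the conservative sites.

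All 6 conservative histone genes, and 13 of the 15 in any list, had GTGTCCC in the 250 bp before the 5′ end. The exceptions among the 15 were hil-7 and his-72. Of all 80 histone genes, 54 (67.5%) had the word there. At his-24, his-32, his-59, his-60, his-61 and his-62, however, the summit had no such word within 100 bp. The other 41 histone genes with the word had no site in any list, so that 24.1% of the 54 had one. Many of the 41 have windows under 50% unique, where 0 of the 40 histone genes had a site in any list. The shares by word are therefore mixed with copied sequence, whose part was not tested. Of the 40 histone genes with both GTGTCCC and TATAAA in those 250 bp, 5 (12.5%) had a conservative site and 9 (22.5%) a site in any list. With neither word there were 15 histone genes, 0 with a conservative site and 2 (13.3%) with a site in any list. Among the 208 other protein-coding genes with the word, 12 (5.77%) had a conservative site, and of the 67 that also had TATAAA there 2 (2.99%) had one and 3 (4.48%) a site in any list. Among the 12786 other genes with neither word the shares were 3.23% and 4.51%. Of the 208, 15 (7.21%) had a site in any list, among them act-4, an actin gene, hsp-3, a chaperone of the endoplasmic reticulum, and hmg-1.1, which encodes a DNA-bending protein. A match says only that the letters are there.

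Genes that handle histones were looked at as a list of 19: variant histones named otherwise, chaperones and processing factors. In the conservative list, with 2.97% of all genes, 1 of the 19 had a site, unc-85, which encodes a chaperone of H3 and H4. The site had a signal of 113, its summit at 4701714 on II, an IDR of 0.00128, and a place in the second list and replicate 2's own list. The second list added chaf-2 (65.8), a subunit of the chromatin assembly factor, lin-53 (82.1), a histone-binding protein, and spt-16 (74), a subunit of FACT, giving 4 of 19 there, where 3.47% of all genes had a site. The other 15 had no site in any list, among them cdl-1, which binds the histone stem-loop (strongest candidate 53.8, IDR 0.033), htz-1, the H2A.Z gene (46.4, IDR 0.307), and hcp-3, the centromeric H3 (50.6, IDR 0.114).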

How the data were processed

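The authors deposited peak lists on ce11, per the submitters' processing notes; no source used here gives the aligner, the peak caller or software versions; depth is unknown, and no interval is given. Each peak has a signal value deposited by the authors on a scale that is not stated, used only to rank and describe peaks. The score deposited by the authors is higher at a lower IDR and was at least 830 in the thresholded lists (an IDR of 0.01 on the scale of the ranked lists). A site outside the conservative list can still exceed 0.01 in the ranked list of both replicates. The ranked list of both replicates as deposited by the authors also gives the −log10 of the global IDR. Its columns for single replicates name no replicate, so replicate values come from each replicate's own ranked list. At a site the value is that of the strongest peak overlapping it, whose summit can differ. Per the deposited notes, 1 additional file went into the thresholded lists.

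Peaks sharing 1 bp or more became 1 site, with the strongest one's summit. Gene models came from Ensembl release 115, and gene symbols from RefSeq by WormBase number for 80 of 80 genes, because 36 of them share an Ensembl name with an identical copy. The stem-loop is a 6-base hairpin with a 4-base loop within 300 bp after the coding end. Python 3.11.15, NumPy 2.4.6, Biopython 1.88 and Matplotlib 3.10.9 were used. Window assignment and merging were checked on planted peaks. Named are all histone genes with a summit in any list, the strongest candidate of each locus without one, and related genes with a site; 3 related genes without one, and 3 of the genes outside both lists that hold the added word, were named after their values were seen. The members, lists and words were chosen with earlier results of these data known. No test was run: there is 1 group, and p-values across genes or sites would not measure replicate spread.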

Additional observations from a re-analysis of the deposited data

How the results depend on the processing

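The 6 histone genes, 5 sites, 3 clusters and 2 single genes of the conservative list, and the 2.97% of all genes, stayed within 1.5 times under a window of 500 bp upstream, peak overlap in place of the summit, the longest transcript only, and without sites at small RNA genes. The same held, for the results they apply to, under cluster gaps of 2 and 20 kb, merging by 50% reciprocal overlap, and (added after seeing the data) only windows with at least 90% unique words of 50 or 36 bases. At an IDR of 0.001 or less the counts were 0 histone genes, 0 sites, 0 clusters and 0 single genes, beside 0.971% of all genes. The second list of both replicates gave 8 sites and 4 single genes. With 1 replicate's own list at a time the counts were 4 to 7 histone genes, 2 to 5 sites, 2 to 3 clusters, 0 to 2 single genes and 1.08% to 2.08% of all genes; the cause was not tested.

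No paired analysis was possible because there is 1 group. With so few sites, 1 site more or fewer moves every share, absence from a list does not show absence of the protein, and the control experiment was not used here.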
